A study of Mus musculus with 3 samples.

Results

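Serine synthesis and the folate one-carbon pathway were described through 10 enzymes of mouse aortic endothelial cells: Phgdh, Psat1, Psph, Shmt1, Shmt2, Mthfd1, Mthfd1l, Mthfd2, Mthfd2l and Aldh1l2. They were taken by gene symbol, and all 10 were found among the 18286 genes for which reads of every library were known. The group was chosen by enzyme name with the log2 ratios of both treated libraries to control in view, so these values are a description and no test was made on them. The cells were purchased endothelial cells of mouse aorta, the cells that line the vessel, and RNA with a poly(A) tail was sequenced. The first library came from untreated control cells and the second from a culture exposed for 30 min to 5 mU/mL of glucose oxidase, whose reaction with glucose yields hydrogen peroxide. A further library came from cells given this exposure and also ethyl-2-hydroxybenzylamine (Et2HOBA) at 0.2 mM for 24 h. The study used this compound as a scavenger under oxidative stress. The labels give neither the order of the exposures nor the age, strain or number of animals behind the culture, and no library given Et2HOBA alone was analysed here.

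Each group held 1 library, so no difference below has a replicate check, no test between conditions was possible, and no p-value is given. Summed over the 18286 genes used, the control library held 35969940 reads, that of glucose oxidase alone 35005082, and that with Et2HOBA 40212197. Where 3 values stand in a row, they are in this order. For glucose oxidase alone, whole reads were obtained by inverting deposited log2 differences. Fold differences are ratios of normalized counts, and their 95% intervals (exact Clopper-Pearson, from the reads of 2 libraries) cover counting error only. Gene positions are on mouse build GRCm38 (mm10). Log2 ratios are of normalized count plus 10, and a gene was counted as higher or lower at a log2 ratio of 1 or more in either direction. All 10 endothelial markers were listed, with summed normalized counts of 354943, 228248 and 207970. Lower than control past the limit were 3 after glucose oxidase and 5 with Et2HOBA (Tek, Vwf, Cldn5, Kdr and Erg), against 8.6% and 8.04% of all genes. None was higher past the limit, and Emcn and Cdh5 were at 1.47-fold and 1.14-fold of control with Et2HOBA. Of 5 smooth muscle markers 4 were listed, and their sums were 39.7, 70.4 and 87.6. Myh11, with 19, 35 and 73 reads, made up most of the sum with Et2HOBA. Acta2 had 8, 18 and 13 reads, Tagln 9, 9 and 4, and Lmod1 5, 6 and 1. Of 5 fibroblast markers 3 were listed, summing to 1324, 2734 and 3783, with Dcn and Lum not listed and Pdgfra at 107, 1325 and 2821 reads. The others, Pi16 (1231, 1284 and 1085) and Col1a1 (28, 30 and 23), differed little. Of 5 macrophage markers 3 were listed, summing to 8146, 17770.5 and 26858, with Ptprc and Adgre1 not listed. Cd68, with 8215, 17067 and 27799 reads, made up nearly all of that sum, while Lyz2 had 186, 76 and 86 and Csf1r 6, 12 and 10. The part of these marker differences in the results was not tested. In such bulk RNA, fewer cells of a type and less RNA per cell cannot be told apart.

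The pathway starts from a glycolytic intermediate, which Phgdh, Psat1 and Psph convert to serine. Serine hydroxymethyltransferases then pass a carbon from serine to tetrahydrofolate, releasing glycine, in mitochondria (Shmt2) or in the cytosol (Shmt1). The folate-bound carbon is oxidised and released as formate by mitochondrial enzymes and is used in the cytosol to build purines, thymidylate and methionine. In many cell types the genes for serine synthesis and the mitochondrial branch are known targets of ATF4, a transcription factor of the integrated stress response, and in endothelium serine synthesis is known to support nucleotide and heme production.

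After glucose oxidase, 7 of the 10 enzymes were higher than in control and none was lower past the limit. Over all genes 4.07% were higher and 8.6% lower, and over protein-coding genes 4.53% and 4.76%. With Et2HOBA added, the same 7 enzymes were higher than in control and 1, Shmt1, was lower, against 6.66% higher and 8.04% lower over all genes and 7.33% and 9.3% over protein-coding ones. At a log2 ratio of 2 or more, 3 enzymes (Psph, Mthfd2 and Aldh1l2) were higher after glucose oxidase and 5 with Et2HOBA, these and Phgdh and Psat1, and none was lower. At that limit 0.771% of all genes were higher and 2.11% lower after glucose oxidase, and 1.63% and 2.17% with Et2HOBA. The 7 were the 3 enzymes of serine synthesis and the mitochondrial enzymes Shmt2, Mthfd2, Mthfd1l and Aldh1l2. The other three, Mthfd2l, Shmt1 and Mthfd1, had log2 ratios between -0.77 and -0.04 after glucose oxidase. The median log2 ratio of the 10 was 1.75 after glucose oxidase and 2.10 with Et2HOBA, where the medians over all genes were -0.01 and 0.00. Both comparisons share the control library.

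Nearest to the limit after glucose oxidase were Mthfd1l, at a log2 ratio of 1.24, and Shmt1, at -0.77. With Et2HOBA they were Shmt1, at -1.04 just inside, and Mthfd2l, at -0.36 outside. Summed over the 3 enzymes of serine synthesis, the counts per total library reads, as CPM, were 162, 604 and 830. The 5 mitochondrial enzymes summed to 161, 591 and 743 CPM, and the 2 cytosolic ones to 91.0, 76.4 and 65.7.

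**Figure D1:**
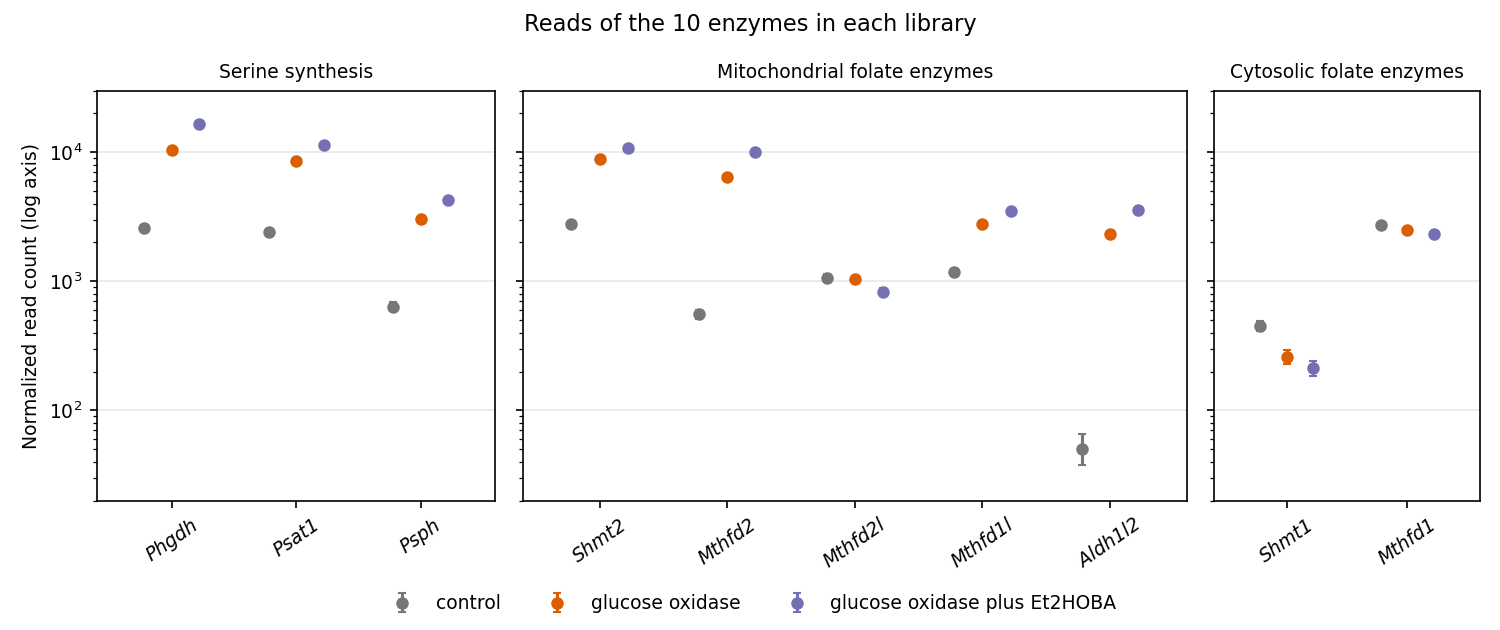
Normalized read counts (log axis) of the 10 enzymes in each library, 1 point per library, with 95% Poisson intervals that cover counting error only. The enzymes of serine synthesis and 4 of the 5 mitochondrial enzymes were lowest in control, and Aldh1l2 had the widest range, from 52 to 3696 reads.

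Promoter sequence was held for 9 of the 10 enzymes in the RefSeq table used here (build GRCm38.p6, 250 bases before to 50 after each start site), and not for Aldh1l2. The 120 bases before the start site are shown for 3 of the enzymes that were higher after glucose oxidase and for Shmt1, which was lower with Et2HOBA, so that their letters can be set beside the values that follow. Capitals mark CCAAT boxes (CCAAT, or ATTGG on the other strand), a common promoter element bound by the factor NF-Y. All are read 5′ to 3′ along the gene.
Mthfd2 (chr6:83317605-83317724, minus strand): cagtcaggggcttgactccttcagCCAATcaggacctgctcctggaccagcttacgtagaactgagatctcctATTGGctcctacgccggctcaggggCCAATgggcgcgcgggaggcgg
Psat1 (chr19:15925060-15925179, minus strand): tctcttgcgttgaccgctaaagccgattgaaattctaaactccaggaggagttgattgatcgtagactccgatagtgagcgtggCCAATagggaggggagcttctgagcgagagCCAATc
Phgdh (chr3:98339970-98340089, minus strand): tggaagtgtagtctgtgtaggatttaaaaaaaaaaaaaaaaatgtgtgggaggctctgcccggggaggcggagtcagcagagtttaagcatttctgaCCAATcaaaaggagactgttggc
Shmt1 (chr11:60811266-60811385, minus strand): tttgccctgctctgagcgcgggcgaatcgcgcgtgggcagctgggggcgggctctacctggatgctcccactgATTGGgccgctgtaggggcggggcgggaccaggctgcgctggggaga

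The core letters of the C/EBP-ATF response element, through which ATF4 is known to act, were searched as TGATGNAA on both strands. No window of the 9 enzymes held them, and 3.97% of all 32851 promoters did. The E-box CACGTG was likewise in none of the 9 and in 7.15% of all. A CCAAT box was in 6 of the 9 enzymes (Phgdh, Psat1, Psph, Mthfd2, Shmt1 and Mthfd1) and in 37.4% of all promoters. Psat1 has a further start site in the table, whose window held none, so that 6 of 10 windows had the box. Mthfd2 held 3 of them, with first bases at -96, -47 and -22 from the start site, as did Psat1, at -36, -6 and 24. Phgdh held the box at -193 and -23, and Psph at -78 and -48. The Phgdh box at -193 and the Psat1 box at 24 lie outside the stretches shown. The box was thus present both in enzymes that were higher and in Shmt1 and Mthfd1, which were not. It was absent from the windows of Shmt2 and Mthfd1l, which were higher, and of Mthfd2l, while every stretch shown above holds it. The antioxidant response element core TGACNNNGC was in Phgdh and Psph and in 12.4% of all; it and the CCAAT box were searched after the sequences had been seen. Binding of factors was not measured. Such matches describe letters only, and a missing match says nothing of sequence outside these windows.

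Serine synthesis enzymes were all several-fold higher in both treated libraries. Phgdh, the dehydrogenase that commits carbon to serine (ENSMUSG00000053398.11, chromosome 3, 98313170 to 98339990, minus strand, 13 exon blocks), had 2672 control reads, 9999 with glucose oxidase and 17153 when Et2HOBA was added. That was a normalized count 4.0-fold (95% interval 3.83 to 4.18) and 6.38-fold (6.12 to 6.65) that of control. Phgdh has processed pseudogenes, intronless copies of its transcript, and 63.1% of the 50-base stretches of its longest transcript also occurred in another annotated gene.

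Of 23 genes sharing stretches with Phgdh, 10 were listed, with summed reads of 127, 132 and 755. These came to 4.75%, 1.32% and 4.40% of the Phgdh reads. With the copies added to Phgdh the folds to control were 3.87 and 6.36, so reads placed on listed copies were too few to alter the direction. Any reads left uncounted because they match several genes do not appear in these sums.

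Psat1, the transaminase of the second step (ENSMUSG00000024640.9, chromosome 19, 15904678 to 15947337, minus strand), had 2497, 8224 and 11789 reads. Its normalized count was 3.52-fold (3.37 to 3.68) and 4.69-fold (4.49 to 4.90) that of control. Psph, the phosphatase that releases free serine (ENSMUSG00000029446.14, chromosome 5, 129765558 to 129787449, minus strand), had 658, 2934 and 4425 reads. The folds of Psph were 4.77 (4.38 to 5.20) and 6.68 (6.16 to 7.26). Of the exon bases of Psph, 10.4% overlapped Cct6a on the opposite strand, a gene with 8249, 8830 and 10082 reads, and the strand setting of the counting is not given in the sources used here. Within this arm the 3 enzymes moved by similar amounts, with log2 ratios from 1.81 to 2.24 after glucose oxidase and from 2.23 to 2.72 with Et2HOBA.

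Among the mitochondrial enzymes the size of the difference varied far more. Shmt2, which splits serine into glycine and a folate-bound carbon (ENSMUSG00000025403.5, chromosome 10, 127517123 to 127522444, minus strand), had 2849, 8570 and 11275 reads, 3.22-fold (3.08 to 3.36) and 3.93-fold (3.77 to 4.10) the control level. Mthfd2, the dehydrogenase and cyclohydrolase that oxidises that carbon (ENSMUSG00000005667.8, chromosome 6, 83305691 to 83325908, minus strand), had 571, 6187 and 10427 reads. This was 11.6-fold (10.6 to 12.6) and 18.1-fold (16.7 to 19.8), rank 25 and rank 24 among all genes by log2 ratio. No 50-base stretch of Mthfd2 occurred in another annotated gene.

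Mthfd2l, a paralog of Mthfd2 with the same reactions (ENSMUSG00000029376.8, chromosome 5, 90931117 to 91021368, plus strand), had 1101, 999 and 859 reads. Its level after glucose oxidase was 0.970 of control, with an interval of 0.889 to 1.06 that includes equal levels, and 0.775 (0.708 to 0.848) with Et2HOBA. Mthfd2l was thus the 1 mitochondrial member that was not higher in either treated library. Mthfd1l, which releases formate from the mitochondrial folate pool (ENSMUSG00000040675.17, chromosome 10, 3973118 to 4167081, plus strand), had 1214, 2704 and 3614 reads. The Mthfd1l folds were 2.38 (2.22 to 2.55) and 2.96 (2.77 to 3.16), the smallest among the 7 enzymes that passed the limit.

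Aldh1l2, a mitochondrial formyl-tetrahydrofolate dehydrogenase that releases the carbon as carbon dioxide and makes NADPH (ENSMUSG00000020256.14, chromosome 10, 83487450 to 83534140, minus strand), was near the bottom of the range of levels in control. Aldh1l2 had 52 reads there, 2244 after glucose oxidase and 3696 with Et2HOBA. By log2 ratio to control with the pseudocount of 10 (5.27 and 5.88) it ranked 1 of all genes after glucose oxidase and 2 with Et2HOBA. The size of these ratios depended on the scale, at 4.56 and 5.17 with a pseudocount of 50 and at 3.64 and 5.06 in the authors' deposited tables. Ranks on those scales were not computed. Of its exon bases, 14.1% overlapped D10Wsu102e on the opposite strand, whose reads went the other way, from 1518 to 1139 and 1094. Its cytosolic counterpart Aldh1l1, an enzyme abundant in liver, was barely detected, with 9, 4 and 3 reads.

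Cytosolic enzymes were level or lower. Shmt1, the cytosolic hydroxymethyltransferase (ENSMUSG00000020534.14, chromosome 11, 60788104 to 60811718, minus strand), had 464, 251 and 221 reads, 0.578 (0.494 to 0.676) of the control level after glucose oxidase and 0.473 (0.401 to 0.557) with Et2HOBA. Its call as lower with Et2HOBA depended on the scale. The log2 ratio was -0.93 with a pseudocount of 50, and in the authors' deposited table it was -0.90. Of the exon bases of Shmt1, 4.74% overlapped Smcr8 on the opposite strand, a gene with 3426, 2908 and 3291 reads. Mthfd1, the trifunctional enzyme that interconverts the folate-bound carbon in the cytosol (ENSMUSG00000021048.7, chromosome 12, 76255298 to 76319803, plus strand), had 2811, 2425 and 2419 reads. Its level was 0.922 (0.873 to 0.974) and 0.855 (0.809 to 0.903) of control, both within the limit.

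**Figure D2:**
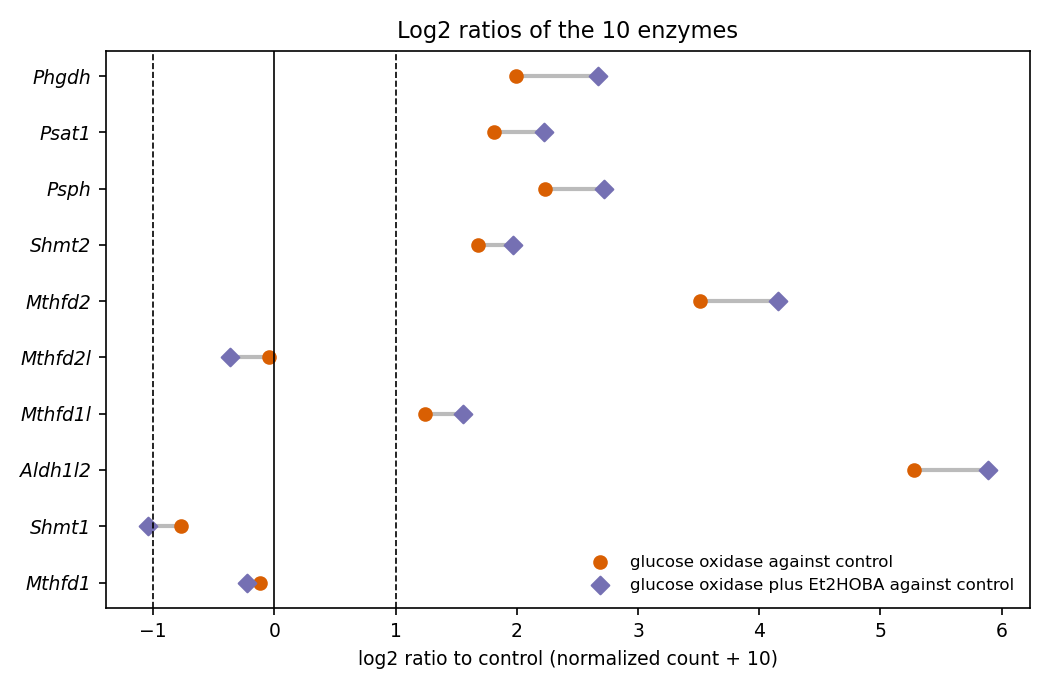
Log2 ratios to control of the 10 enzymes, with circles for glucose oxidase and diamonds for glucose oxidase plus Et2HOBA, and dashed lines at 1 and -1. The 7 enzymes to the right of the limit all lay farther from control with Et2HOBA, up to 5.88 for Aldh1l2, and both ratios of an enzyme share the control library.

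Between the treated libraries the question was what Et2HOBA added to glucose oxidase. No enzyme passed the limit in either direction. Higher with Et2HOBA were 6.39% of all genes and 0.971% of protein-coding genes, and 2.15% and 2.35% were lower. Of the 1169 higher genes, only 129 were protein-coding. Lower than control were 1572 genes after glucose oxidase, 633 of them protein-coding, and 1471 with Et2HOBA, 1236 of them protein-coding. Genes without a read numbered 464 for glucose oxidase alone, against 131 for control and 218 for the combined exposure. The part of a library or processing difference in these all-gene shares was not tested. At a log2 ratio of 0.5 or more, 3 enzymes were higher (Phgdh, Mthfd2 and Aldh1l2) and none lower, against 13.6% and 12.0% of all genes. The higher share was smaller among the 13285 protein-coding genes, where Cth, a gene described below, ranked 763 at a log2 ratio of 0.497. The 7 enzymes above were each higher with Et2HOBA by less than the limit, and the intervals of the fold did not include 1. Phgdh differed most, at 1.59-fold (1.56 to 1.63), followed by Mthfd2 at 1.57-fold (1.52 to 1.62) and Aldh1l2 at 1.53-fold (1.45 to 1.61). These intervals overlapped, so the order among them is within counting error. With its listed copies added, Phgdh was at 1.64-fold. Shmt2 differed least among the 7, at 1.22-fold (1.19 to 1.26). Mthfd2l, Shmt1 and Mthfd1 were at 0.799 (0.729 to 0.876), 0.818 (0.680 to 0.985) and 0.927 (0.876 to 0.981) of the level after glucose oxidase alone. The median over the 10 enzymes was 0.36, against 0.00 over all genes and -0.02 over protein-coding genes. None of the 7 higher enzymes was nearer to control with Et2HOBA than without it.

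Levels of different enzymes were compared per kilobase of exon. In control, Phgdh was highest at 1042 normalized counts per kilobase, followed by Shmt2 at 888, Mthfd1 at 613 and Psat1 at 569, and the Poisson intervals of the last pair overlapped. Mthfd2l (161), Mthfd2 (159) and Psph (147) followed Mthfd1l (265) and, among these, neighbours did not differ beyond counting error. Shmt1 stood at 116 and Aldh1l2 at 6.72.

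After glucose oxidase Phgdh (4166) and Shmt2 (2855) kept the first places, Psat1 (2003) and Mthfd2 (1838) came next, and Mthfd1 (566), the third in control, was the seventh. With Et2HOBA, Mthfd2 (2879) stood above Psat1 (2668), Aldh1l2 reached 474, and Shmt1 was lowest at 54.8. No neighbours in these later orders had overlapping intervals.

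**Figure D3:**
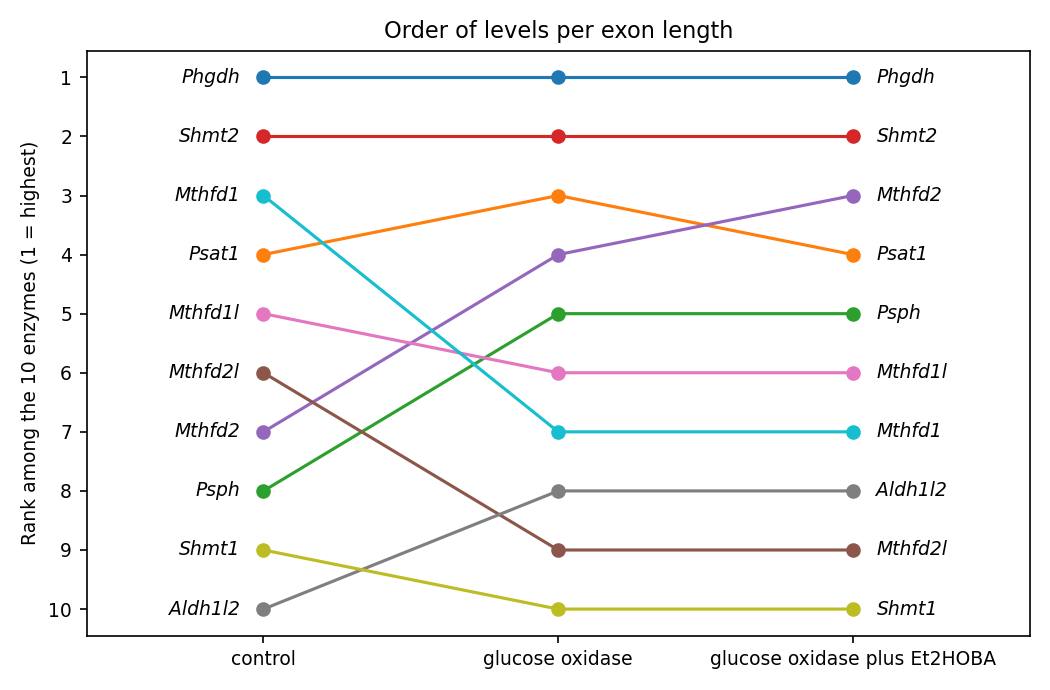
Rank of the 10 enzymes by normalized count per kilobase of exon in each library, with rank 1 highest and lines joining the same enzyme. Mthfd2 moved from rank 7 in control to rank 3 with Et2HOBA, Mthfd1 from 3 to 7 and Mthfd2l from 6 to 9, and the spacing between ranks is not to scale with the levels.

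Ratios of a mitochondrial enzyme to its cytosolic counterpart within a library do not depend on the scaling between libraries. Shmt2 exceeded Shmt1 per exon base by 7.67-fold in control (95% interval 6.95 to 8.48), 42.6-fold after glucose oxidase (37.6 to 48.5) and 63.7-fold with Et2HOBA (55.8 to 73.1). Mthfd1l was below Mthfd1 in control, at a ratio of 0.433 (0.404 to 0.463), and above it in both treated libraries, at 1.12 (1.06 to 1.18) and 1.5 (1.42 to 1.58). The ratio of Mthfd2 to Mthfd1 went from 0.259 (0.236 to 0.283) to 3.25 (3.10 to 3.41) and 5.49 (5.25 to 5.74).

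The paralogs Mthfd2 and Mthfd2l, both mitochondrial, had equal levels in control within counting error, with a ratio of 0.988 (0.892 to 1.09). That ratio was 11.8 (11.04 to 12.6) after glucose oxidase and 23.1 (21.6 to 24.8) with Et2HOBA. In the serine arm the proportions were steadier: the ratio of Phgdh to Psph was 7.07, 5.93 and 6.75 in the 3 libraries, and that of Psat1 to Phgdh 0.546, 0.481 and 0.402.

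**Figure D4:**
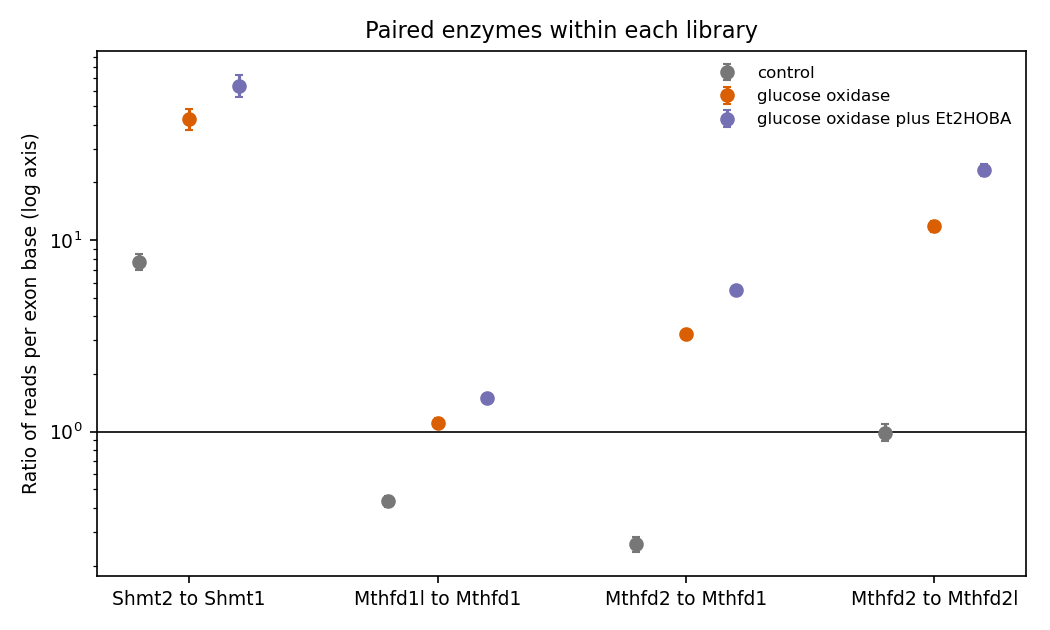
Ratio of reads per exon base (log axis) of 4 enzyme pairs in each library, with 95% Clopper-Pearson intervals that cover counting error only and a line at equal levels. Mthfd1l and Mthfd2 lay below Mthfd1 in control and above it in both treated libraries, and the ratio of Mthfd2 to Mthfd2l went from 0.988 to 23.1.

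Genes around these enzymes were taken from pathway lists. In the list of glycine cleavage and mitochondrial folate genes, 6 of 8 were listed and none passed the limit in any comparison. Over all genes 2.15% to 8.6% passed it in either direction, so a count of 0 in so short a list does not set it apart. Gldc, the glycine decarboxylase, was not listed. Gcsh, its carrier protein, had 1829, 1978 and 2068 reads. Slc25a32, the mitochondrial folate carrier, had 1984, 1319 and 1109, at 0.711 (0.662 to 0.762) and 0.555 (0.516 to 0.598) of control. Both log2 ratios of this carrier, -0.49 and -0.84, stayed within the limit.

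Of the cytosolic folate and folate-handling genes 11 of 13 were listed, and none passed the limit, with medians of -0.08 in both comparisons with control. Tyms, which makes thymidylate, had 1978, 1175 and 1204 reads. Purine synthesis, which takes up formyl groups, had all 11 genes listed and none past the limit, with log2 ratios from -0.10 to 0.67 after glucose oxidase and from -0.04 to 0.91 with Et2HOBA. Against control 4.07% to 8.6% of all genes passed the limit in either direction, so counts of 0 in lists this short do not set them apart. Of the S phase list, 5 of 10 genes were lower than control after glucose oxidase and 9 with Et2HOBA, where 8.6% and 8.04% of all genes were lower. Among them were Mcm5 (3041, 967 and 443 reads) and Mcm6 (2767, 1081 and 587), subunits of the replicative helicase. Tk1, a thymidine kinase, had 1519, 490 and 301 reads, and Rrm2, a subunit of ribonucleotide reductase, had 3692, 1567 and 1134. The part of these lower S phase transcripts in the values of Shmt1 and Tyms was not tested.

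Serine and glycine transport was the list with most genes past the limit among those on serine and folate, with 3 of 8 listed genes higher than control in each comparison, against 4.07% and 6.66% of all genes. They were Slc6a9, the glycine transporter GlyT1 (453, 2165 and 3231 reads), Slc1a4, a carrier of serine and alanine (856, 2461 and 3242), and Slc1a5, a glutamine and serine carrier (238, 808 and 1077). The longest transcript of Slc6a9 shared 41.2% of its stretches with another gene, mostly Ccdc24, so its count is uncertain. The mitochondrial serine carrier Sfxn1 differed little, with 1787, 2041 and 2060 reads, and its relative Sfxn2 was lower with Et2HOBA, at 226, 122 and 67.

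Serine is also the partner of homocysteine in transsulfuration, the route to cysteine, and the genes for its enzymes differed in opposite directions. Cbs, which joins serine and homocysteine, had 328, 17 and 11 reads, levels of 0.0554 (0.0319 to 0.0901) and 0.0333 (0.0165 to 0.0604) of control. Cth, which releases cysteine, had 40, 470 and 718 reads, 12.6-fold (9.09 to 17.8) and 17.8-fold (13.0 to 25.2) the control level. In the methionine cycle 8 of 11 genes were listed, and Mat2a, which makes the methyl donor S-adenosylmethionine, was past the limit after glucose oxidase at a log2 ratio of 1.01 and not with Et2HOBA at 0.93. Among genes that use serine, 9 of 10 were listed and Sars, the cytosolic seryl-tRNA synthetase, was higher, with 7403, 16420 and 25578 reads.

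The list of ATF4 and genes known to respond with it had 7 of 10 members higher after glucose oxidase and 8 with Et2HOBA, against 4.07% and 6.66% of all genes. By the largest log2 ratio in any comparison, the first were Chac1 (65, 1396 and 2976 reads), Trib3 (291, 7016 and 11263), Asns (790, 7854 and 12973) and Atf3 (107, 667 and 1630). Ddit4 had 38578, 24686 and 20909 reads. Atf4 itself had 3288, 11946 and 19243 reads, 3.88-fold (3.74 to 4.04) and 5.82-fold (5.60 to 6.04) the control level, within the range of the 7 higher enzymes, from 2.38 to 46.1 after glucose oxidase and from 2.96 to 70.6 with Et2HOBA.

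**Figure D5:**
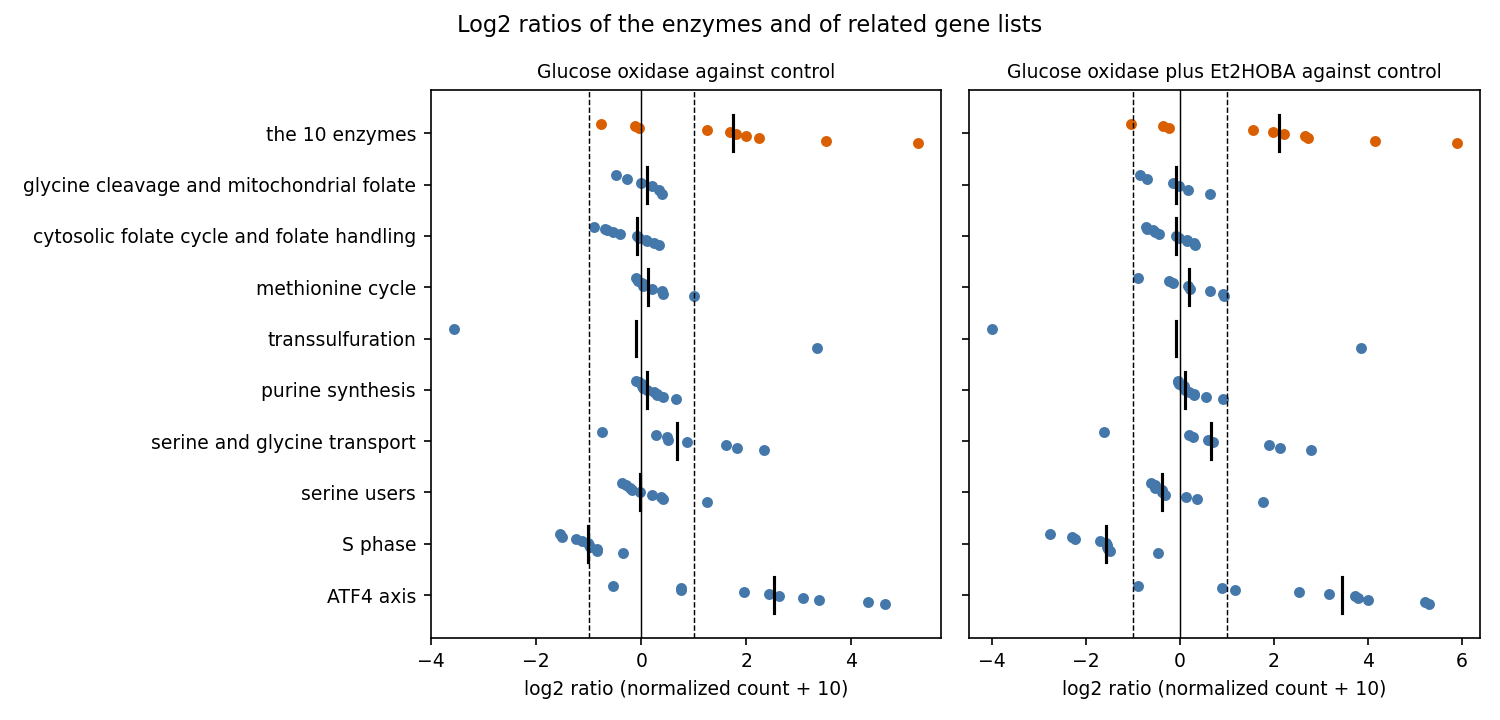
Log2 ratios to control of the 10 enzymes and of the genes in 9 related lists, 1 point per gene, with a black bar at each median and dashed lines at 1 and -1. The medians of the 10 enzymes (1.75 and 2.10) lay above those of the folate, methionine, purine and serine lists, which were between -0.37 and 0.68, and below those of the ATF4 list (2.52 and 3.44).

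Genes with the pattern most like that of Mthfd2 were found by the distance between their pairs of log2 ratios to control, over 3 libraries and 10587 other protein-coding genes with a mean normalized count of 100 or more. The nearest were Bcat1 (distance 0.11), Asns (0.19), Pycr1 (0.21), Il12b (0.29) and Gsta1 (0.30), and 3 genes lay within 0.25. Bcat1 encodes a branched-chain amino acid transaminase, Asns makes asparagine, and Pycr1 makes proline. Il12b and Gsta1 had 8 control reads each, so their place is imprecise. For Mthfd1 the nearest were Ppp5c, 9430038I01Rik, Rmnd5a, C1galt1c1 and Eif2b1, each at a distance of 0.01, and 2271 genes lay within 0.25. With 2 ratios per gene, likeness of this kind says little for a gene near no change.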

How the data were processed

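Stranded libraries were prepared from polyadenylated RNA, per the labels' protocols. STAR, featureCounts and the build mm10 are named in the submitters' processing notes; versions, annotation and strand setting are not given in the sources used here. The authors deposited raw read counts of the control and glucose oxidase plus Et2HOBA libraries, their log-normalized values and a log2 difference, per the file headers, for 18287 genes. For the library given glucose oxidase alone, the authors deposited log2 differences to control, and for 7 genes log2 differences between the treated libraries, without counts.

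The authors' log-normalized values followed an arcsinh of the root of the count. Inverted, this form gave whole glucose oxidase reads (tolerance 0.01) in 100% of the 18258 genes with a unique symbol; adding 1 read to every control count left 3.30% whole. A further 28 genes were placed by whole reads and 1 was left out. Tested on simulated data of 18286 genes, the procedure recovered 100% of the simulated reads exactly. The simulated differences were built with the same form, so this tested the inversion and not whether the deposited differences follow that form. Gene IDs of 17877 genes had the same version in GENCODE M21, and all had the same position.

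Size factors by median of ratios (1.03, 0.965 and 1.04) scaled the counts, and a pseudocount of 10 was added. Exon lengths and transcripts were from GENCODE M21. Python 3.11.15, scipy 1.17.1 and edgeR 4.0.16 (TMM factors only) were used. No count model was fitted.

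The members, the lists, the limit of 1 log2 unit and the alternatives were chosen with earlier results of these data known. Named genes were the 10 enzymes, up to 4 genes past the limit per list, the list genes that pair directly with an enzyme, and the 5 nearest patterns to Mthfd2 and to Mthfd1. Atf4, Ddit4, Cd68, Lyz2, Csf1r, Pi16, Col1a1, Pdgfra, Dcn, Lum, Ptprc, Adgre1, Cct6a, D10Wsu102e, Smcr8 and Ccdc24 were named after their values were seen. So were the smooth muscle markers Myh11, Acta2, Tagln and Lmod1, and the endothelial markers Tek, Vwf, Cldn5, Kdr, Erg, Emcn and Cdh5. A gene that the rule covers is not reported here. Alternatives were other pseudocounts, scalings, limits and gene sets.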

Additional observations from a re-analysis of the deposited data

How the results depend on the processing

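Under other pseudocounts and scalings, direction was kept in all 180 recomputed values of single enzymes, and the side of the limit in 178. The exceptions were both Shmt1 with Et2HOBA against control, given above. A pseudocount added to both counts cannot change direction, so direction under other pseudocounts was fixed in advance. The count of enzymes past the limit was 7 after glucose oxidase, 8 with Et2HOBA against control and 0 between the treated libraries. At a limit of 2 the first and second counts were 3 and 5, and at a limit of 0.5 the third was 3. A subset of 7 enzymes had under 5% of stretches shared with other genes. It left out Phgdh, Psph and Aldh1l2, and was planned in words with the cutoff set after seeing the data. Its counts were 4 and 5 and its medians 1.24, 1.56 and 0.29. Shmt1, at 4.81%, lay just under the cutoff and gave the 1 lower call in the second count. The other medians that moved were 1.68 after glucose oxidase on the scale of the deposited tables, and 1.95 and 0.27 for the comparisons of the Et2HOBA library with control and with glucose oxidase under total-count scaling, which put the median of all genes at -0.13 and -0.08. Size factors over protein-coding genes only were added after seeing the data and changed no call. No paired analysis was possible because each group held 1 library. Depth limited Aldh1l1, Il12b and Gsta1, with under 10 control reads each.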
